A study of Homo sapiens with 8 samples.

Results

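The comparison described here set HepG2 cells that had received a miR-552-3p mimic against HepG2 cells that had received an siRNA to importin8. HepG2 is a human hepatocellular carcinoma line that makes many hepatocyte proteins. The members were chosen by the sample titles alone and are 4 of the 8 libraries of the series. The first 2 libraries, called the mimic group, carried the mimic at 1 nM together with a control siRNA at 30 nM. The other 2, called the siRNA group, carried the importin8 siRNA at 30 nM together with a control mimic at 1 nM. Cells were lysed 72 h after transfection, and poly(A) RNA was sequenced as single-end reads of 50 bases. No library with both controls (NC) and none with both active RNAs entered the contrast. These 2 further groups, with 2 libraries each, place the levels and add to the shared estimate of spread. Both groups compared had an active RNA, so a difference between them does not tell by itself which of the 2 treatments moved a gene. Nothing in the labels states whether the 2 libraries of a group are separate cultures, and p-values here reflect only how far these libraries spread, possibly from technical sources. The labels give human liver as the source name beside the name of the cell line.

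A miRNA is a short RNA that, loaded on an Argonaute protein, pairs through its seed, bases 2 to 8, with matching stretches in the 3′ untranslated region (UTR) of messenger RNAs and lowers their stability or translation. Importin8, the product of IPO8, is a nuclear import receptor that carries cargo through the nuclear pore and has also been linked to Argonaute proteins. The series title places the mimic in the activity of FXR and LXR, nuclear receptors that respond to bile acids and to oxysterols and that set bile acid, lipid and glucose metabolism in the liver. FXR induces the repressor SHP, which lowers the transcription of the bile acid synthesis enzymes, while LXR induces sterol export and fatty acid synthesis genes.

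The sequence of the mature human miRNA is shown because its seed defines the target sites counted further down. It is the RefSeq entry (GRCh38.p14, chromosome 1, 34669614 to 34669634, minus strand), 5′ to 3′, with the seed in capitals.
miR-552-3p: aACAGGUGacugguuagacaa
The matching sites on a messenger RNA are CACCTGTA (8mer), CACCTGT (7mer-m8) and ACCTGTA (7mer-A1). The sequences of the mimic and of the siRNA themselves are not given in the sources used here.

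A set of 3 reference UTRs illustrates the 8mer. They belong to called genes whose messenger RNA was lower in the mimic group, 3 of the 6 genes with an 8mer that were named for a large difference. The sites of the other 3, CYP7A1, ITGAL and SEC14L6, whose differences were larger, are not shown. Those of ITGAL and SEC14L6 are followed by the letters NTCCCA (N for any base), a frequent context counted further down. The 3 printed sites are not followed by these letters, so they do not stand for all 8mers. Each line gives 12 bases before and 6 after the site, 5′ to 3′ on the strand of the gene, with the 8mer in capitals, and its position on GRCh38 (GENCODE annotation).
ACADSB, chr10:123053987-123053994, plus strand: ttgggaaataagCACCTGTAtttttt
SPARC, chr5:151662294-151662301, minus strand: tttgcacacacaCACCTGTAcacaca
PAGR1, chr16:29819934-29819941, plus strand: ttttctattgaaCACCTGTAgagtgt

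Expected counts of the 4 libraries summed to 22060634 and 21665807 in the mimic group and to 22061806 and 21764984 in the siRNA group, so depth was nearly equal. Over all 8 libraries the sums ran from 21608563 to 22102373. The most abundant gene took 7.39 to 8.92% of the counts of the 4 libraries. Levels are given as CPM, counts scaled to a common library size with TMM factors. A log2 fold change is the mimic group minus the siRNA group throughout, so that a positive value is a higher level with the mimic. Differences were tested with edgeR's quasi-likelihood F test, and a gene passed at a Benjamini-Hochberg adjusted p under 0.05 over the 17715 genes tested.

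IPO8 (chromosome 12, 30628988 to 30695986, minus strand), the target of the siRNA, was at 25.4 and 24.6 CPM with the mimic and 11.3 and 11.5 CPM with the siRNA. Both libraries of the siRNA group lay below both of the mimic group, with a log2 fold change of 1.13 (SE 0.085, adjusted p = 2.2e-06), in the direction of the labels. In NC it was at 34.7 and 33.3 CPM, so that the mimic libraries also lay below NC, by -0.44 on the log2 scale against -1.57 for the siRNA libraries. With both active RNAs it was at 7.65 and 8.3 CPM, below either single treatment.

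The 2 single treatments left HepG2 cells with clearly different transcript levels. Of 17715 genes tested, 8892 (50.2%) passed, 4316 (24.4%) of them higher with the mimic and 4576 (25.8%) higher with the siRNA. At least 2-fold differences were found for 3366 genes (19.0%), of which 1754 (9.90%) were higher with the mimic and 1612 (9.10%) with the siRNA. At least 4-fold differences were found for 1139 genes and at least 16-fold differences for 251. The median absolute log2 fold change over all genes was 0.49, against a median absolute difference between replicates of 0.14 in the mimic group and 0.12 in the siRNA group. In such bulk samples, fewer cells of a type and less RNA per cell cannot be told apart. In 13409 genes (75.7%) the libraries of both groups did not overlap. Since about 1 in 4 genes passed in each direction, the counts for the gene lists below are read against 24.4% and 25.8%.

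**Figure D1:**
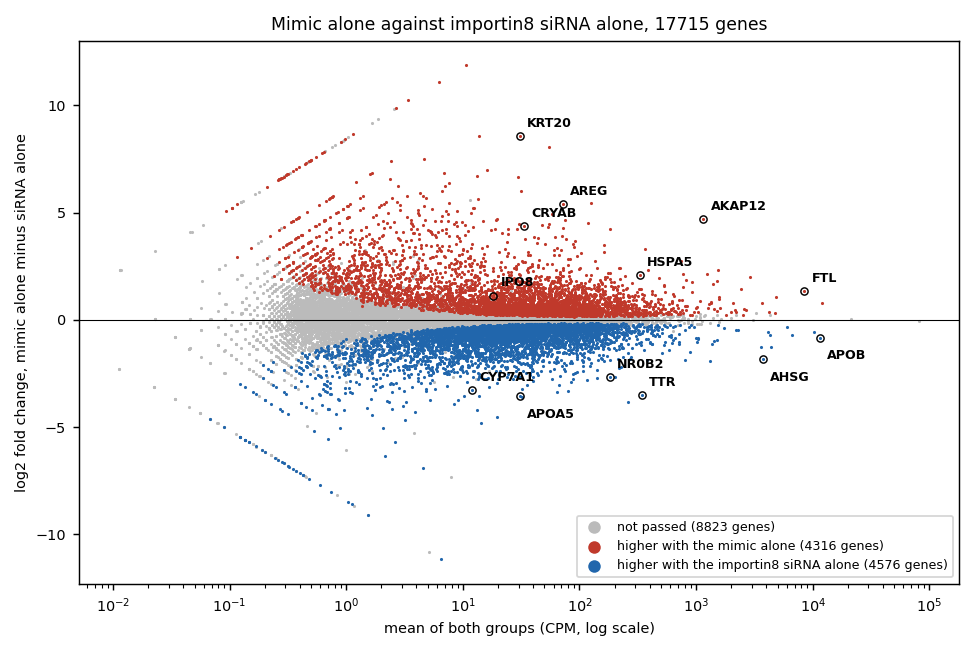
Log2 fold change of the mimic group minus the siRNA group (vertical) against the mean CPM of both groups (horizontal, log scale) for 17715 genes, one point per gene. Red points (4316) were higher with the mimic, blue points (4576) higher with the siRNA, grey points did not pass, and the named genes are circled. Genes with a large difference are found in both directions, also at high levels, as AKAP12 and AHSG show.

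The bile acid regulators differed in one direction. NR1H4, which encodes FXR, was at 27.6 and 27.5 CPM with the mimic and 84.7 and 77.1 CPM with the siRNA, a log2 fold change of -1.56 (SE 0.07, adjusted p = 8.1e-08). The NC libraries were at 73.3 and 74.7 CPM and those with both RNAs at 70.3 and 66.2 CPM, so the mimic group alone stood apart at the low end. NR0B2, which encodes SHP, was at 49.1 and 49.3 CPM with the mimic and 316 and 318 CPM with the siRNA (log2 fold change -2.69, adjusted p = 6.0e-09). Here NC lay between, at 138 and 123 CPM. CYP7A1, the rate-limiting enzyme of the classic bile acid pathway, was at 2.11 and 2.36 CPM with the mimic and 22.3 and 21.2 CPM with the siRNA (log2 fold change -3.28, SE 0.15, adjusted p = 9.9e-08). Its NC level was 1.31 and 1.8 CPM, close to the mimic group, and 10.6 and 10.2 CPM with both RNAs, so the level was high only in the 4 libraries with importin8 siRNA. SHP and the enzyme that SHP is known to repress were thus both higher in the siRNA group. CYP8B1, the sterol 12-alpha-hydroxylase, was at 0.183 and 0.283 CPM with the mimic and 5.65 and 6.56 CPM with the siRNA, and in contrast to CYP7A1 its NC level, 3.87 and 4.6 CPM, was close to the siRNA group. AKR1D1, a reductase of the pathway, was also higher with the siRNA (log2 fold change -2.77). BAAT, which conjugates bile acids to glycine and taurine, was the one member of the synthesis list higher with the mimic, at 20.2 and 24.2 CPM with the mimic and 10.8 and 8.09 CPM with the siRNA (log2 fold change 1.23). Of 14 listed synthesis genes 8 of the 12 tested were higher with the siRNA and 1 with the mimic (median log2 fold change -0.74).

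Bile acid transporters split. SLC51A, the alpha chain of the basolateral exporter OST, was at 20.1 and 18.3 CPM with the mimic and 122 and 112 CPM with the siRNA (log2 fold change -2.61, adjusted p = 4.3e-08), while its partner SLC51B differed by 0.37. The efflux pumps ABCC2, ABCC3 and ABCC4 were all higher with the mimic, with log2 fold changes of 1.30, 1.07 and 1.12. ABCC2, which exports conjugated bilirubin into bile, reached 1298 and 1349.6 CPM with the mimic against 543 and 533 CPM with the siRNA. The phospholipid floppase ABCB4 had the opposite sign (-0.77). Of the transport and FXR target list 6 of the 12 tested were higher with the siRNA and 4 with the mimic (median log2 fold change -0.46).

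The LXR receptors themselves differed little. NR1H3, which encodes LXR alpha, had a log2 fold change of -0.40 (adjusted p = 0.0013), and NR1H2, which encodes LXR beta, did not pass (0.05, adjusted p = 0.63). ABCA1, the cholesterol exporter that LXR induces, was at 106 and 115 CPM with the mimic and 152 and 161 CPM with the siRNA (log2 fold change -0.49). SREBF1, the lipogenic regulator downstream of LXR, differed by -0.50. A larger difference was found for MLXIPL, which encodes the glucose-responsive factor ChREBP, at 30.2 and 28.5 CPM with the mimic and 156 and 164 CPM with the siRNA (log2 fold change -2.45, adjusted p = 2.0e-08). SMPDL3A, a phosphodiesterase and LXR target, went the other way, at 61.5 and 55.6 CPM with the mimic and 17.1 and 16.9 CPM with the siRNA (log2 fold change 1.79). Among the LXR targets 7 of the 12 tested were higher with the siRNA and 1 with the mimic (median log2 fold change -0.37).

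**Figure D2:**
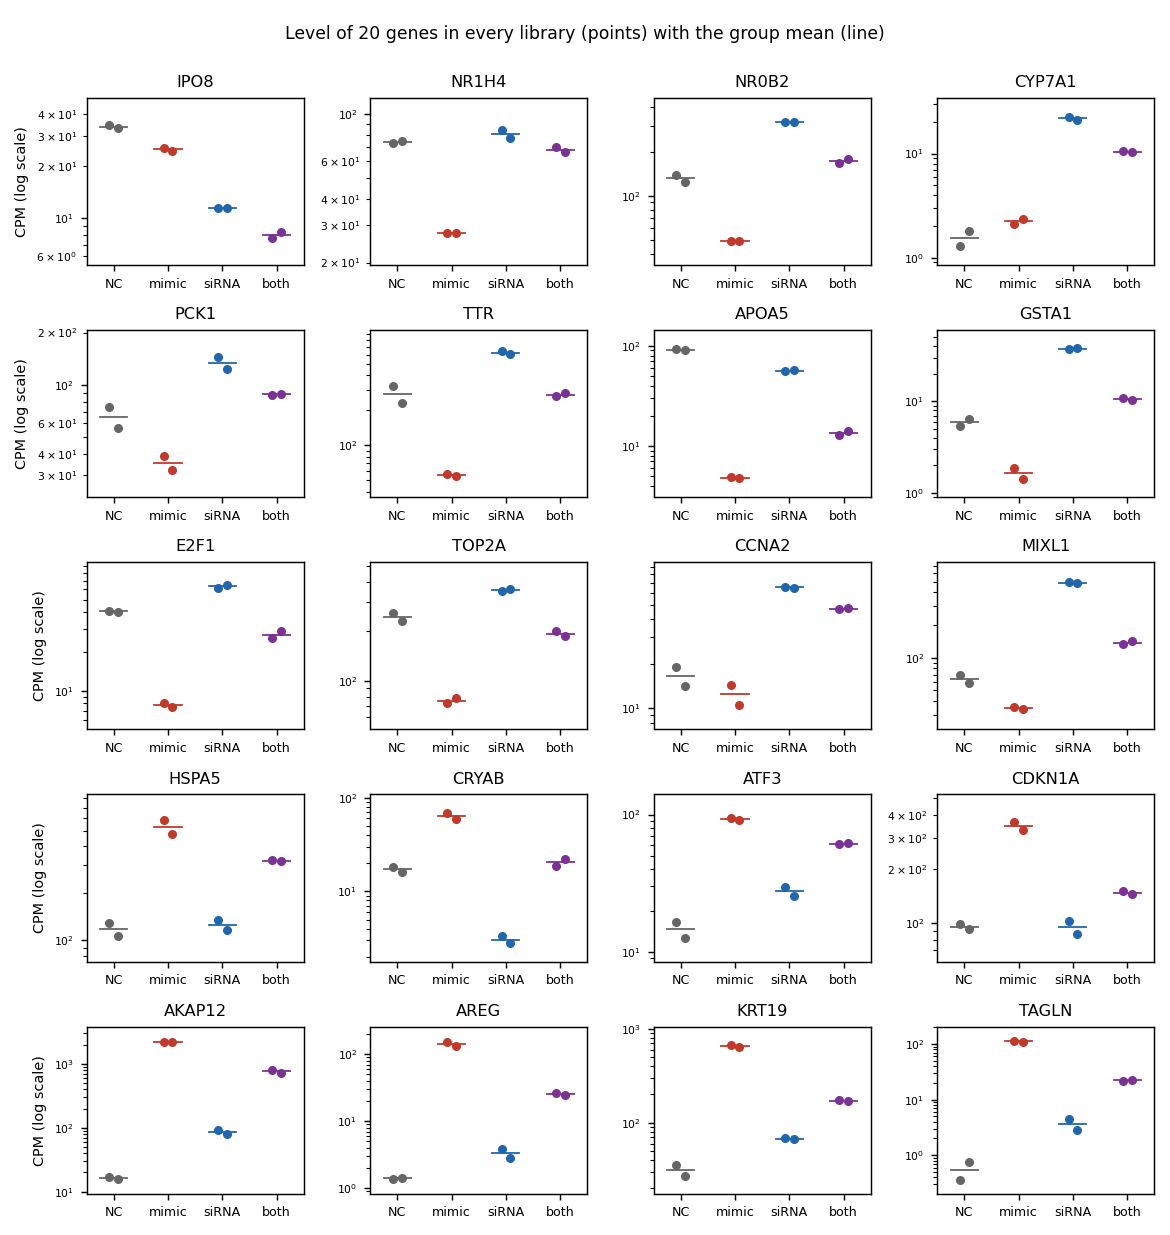
Level of 20 genes in CPM (vertical, log scale) in every library, grouped as NC, mimic (mimic group), siRNA (siRNA group) and both active RNAs. Points are libraries and lines are means of 2. The mimic and siRNA libraries do not overlap in any panel, and with both RNAs the level lies between the single treatments in every panel but IPO8, where it is the lowest.

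Fatty acid and triglyceride synthesis was lower in the mimic group at most steps. FASN, the fatty acid synthase, was at 306 and 339 CPM with the mimic and 505 and 561 CPM with the siRNA (log2 fold change -0.72, adjusted p = 2.6e-04). SCD, which desaturates stearate, differed by -0.83 and ACACA, the first committed enzyme, by -0.85, while ACLY upstream of both did not pass (0.15, adjusted p = 0.068). At the last steps, the acyltransferases DGAT1 and DGAT2 had log2 fold changes of -1.49 and -1.65. PNPLA3, the lipid droplet protein known for its link to fatty liver, showed the largest difference of the list, -2.15, with 7.05 and 6.5 CPM with the mimic and 28.7 and 31.4 CPM with the siRNA. LPIN1, a phosphatidate phosphatase, was higher with the mimic (0.91). Of the list 11 of the 16 tested were higher with the siRNA and 3 with the mimic (median log2 fold change -0.78).

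Cholesterol synthesis was lower in the mimic group over almost the whole route. DHCR7, which acts at the end of the route, was at 62.8 and 61.1 CPM with the mimic and 238 and 216 CPM with the siRNA (log2 fold change -1.87, adjusted p = 2.3e-08). MSMO1, another late enzyme, was at 55.8 and 51.6 CPM with the mimic and 162 and 162 CPM with the siRNA (-1.59). SQLE, the squalene epoxidase, differed by -0.86, and HMGCS1 and FDFT1, which act further up, by -0.32 and -0.36. SREBF2, the regulator of the route, did not pass (0.02, adjusted p = 0.82). Of the list 19 of the 25 tested were higher with the siRNA and 2 with the mimic (median log2 fold change -0.80). Both single treatments lay below NC here, as DHCR7 shows with 297 and 283 CPM in NC, so the difference is one of degree.

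Lipoprotein genes were among the larger differences. APOA5 (chromosome 11, 116789367 to 116792420, minus strand, on GRCh38), a regulator of plasma triglyceride, was at 4.85 and 4.76 CPM with the mimic and 56.4 and 56.9 CPM with the siRNA, a log2 fold change of -3.56 (SE 0.085, adjusted p = 3.8e-09). APOC3, an inhibitor of triglyceride clearance in the same gene cluster, was at 21.2 and 18.3 CPM with the mimic and 151 and 148 CPM with the siRNA (log2 fold change -2.92). APOA4, also of that cluster, differed by -3.20 and APOA1 by -1.06. MTTP, which loads lipid onto apolipoprotein B, was at 44.2 and 45.2 CPM with the mimic and 172 and 167 CPM with the siRNA (log2 fold change -1.92). APOB itself was at 7471 and 9172 CPM with the mimic and 14591 and 15029 CPM with the siRNA (log2 fold change -0.83). APOM, a carrier of sphingosine-1-phosphate, differed by -2.37. APOA2 stood against the rest, at 2649 and 2364 CPM with the mimic and 1797 and 1835 CPM with the siRNA (log2 fold change 0.47), and APOE did not pass (-0.15, adjusted p = 0.098). In the list 13 of the 18 tested were higher with the siRNA and 1 with the mimic (median log2 fold change -1.05). SOAT2, which esterifies cholesterol for lipoproteins, is in none of these lists and was at 11.7 and 10.7 CPM with the mimic and 118 and 115 CPM with the siRNA (log2 fold change -3.38).

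Fatty acid oxidation followed the same direction. The regulators PPARA and PPARGC1A had log2 fold changes of -1.27 and -1.24. CPT1A, the gate for fatty acids into the mitochondrion, was at 39 and 39.3 CPM with the mimic and 116 and 111 CPM with the siRNA (log2 fold change -1.53, adjusted p = 7.3e-08). EHHADH, the bifunctional enzyme of peroxisomal oxidation, differed by -2.54, and BDH1, which makes 3-hydroxybutyrate, by -1.76. The 2 chains of the trifunctional protein had small positive values, 0.24 for HADHA, which passed, and 0.15 for HADHB, which did not (adjusted p = 0.15). Of the list 14 of the 19 tested were higher with the siRNA and 3 with the mimic (median log2 fold change -0.96). ACSM2A, a mitochondrial acyl-CoA synthetase outside this list, was at 1.24 and 1.46 CPM with the mimic and 23.4 and 26.5 CPM with the siRNA (log2 fold change -4.20).

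In gluconeogenesis, PCK1, the cytosolic entry enzyme, was at 38.9 and 32.3 CPM with the mimic and 144 and 123 CPM with the siRNA (log2 fold change -1.91, adjusted p = 2.5e-05). G6PC, the glucose-6-phosphatase that ends the route, had low levels, with 0.549 and 0.66 CPM with the mimic and 4.71 and 4.81 CPM with the siRNA (log2 fold change -2.97). CREB3L3, a liver transcription factor of the fasting response, was at 5.72 and 5.94 CPM with the mimic and 35.6 and 34.5 CPM with the siRNA (log2 fold change -2.59), and FOXO1 differed by -1.26. PC, the mitochondrial pyruvate carboxylase, was higher with the mimic (1.11), and PCK2, the mitochondrial form of PCK1, did not pass (0.05, adjusted p = 0.59). Of this list 6 of the 10 tested were higher with the siRNA and 3 with the mimic (median log2 fold change -0.74). FBP1 and CYP2E1, also of the study's theme, had too few counts to be tested.

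Glycolysis had no common direction. Some isozymes that mark non-hepatic tissues were higher with the mimic. PFKP was at 25.9 and 26.8 CPM with the mimic and 3.63 and 1.57 CPM with the siRNA (log2 fold change 3.34). HK1 was at 14 and 14.7 CPM with the mimic and 3.27 and 2.56 CPM with the siRNA (2.29). For HK1 NC had 17.8 and 12.5 CPM, near the mimic group, so the siRNA group was the one apart. The liver isozymes PFKL and PKLR were higher with the siRNA, with -1.04 and -1.74. LDHA, the lactate dehydrogenase of most tumour cells, did not pass (0.0017, adjusted p = 0.99). Of the list 8 of the 25 tested were higher with the mimic and 5 with the siRNA (median log2 fold change 0.11). The count of 8 was 4 without replicate 1 of the mimic group, 5 without replicate 2 and 3 without replicate 2 of the siRNA group.

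Secreted proteins of hepatocytes were lower in the mimic group for most members, but not for albumin. TTR (chromosome 18, 31557010 to 31599021, plus strand, on GRCh38), the carrier of thyroid hormone and of the retinol-binding protein, was at 57 and 54 CPM with the mimic and 648 and 607 CPM with the siRNA, with a log2 fold change of -3.50 (SE 0.15, adjusted p = 3.1e-07). AHSG, a plasma inhibitor of calcification, was at 1717 and 1567 CPM with the mimic and 6165 and 5467 CPM with the siRNA (log2 fold change -1.82). SERPINA6, the corticosteroid carrier, differed by -2.82, and AFP, the fetal albumin homologue, by -0.59 at 8422 and 8099 CPM with the mimic and 12695 and 12096 CPM with the siRNA. ALB was at 21535 and 21604 CPM with the mimic and 21666 and 20794 CPM with the siRNA and did not pass (0.02, adjusted p = 0.88). SERPINA3, an acute phase protease inhibitor, was higher with the mimic, at 737 and 821 CPM with the mimic and 320.4 and 305 CPM with the siRNA (log2 fold change 1.31). Of the plasma protein list 19 of the 24 tested were higher with the siRNA and 2 with the mimic (median log2 fold change -0.58).

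The 3 fibrinogen chains, which join into one protein, did not move together. FGA was at 463 and 485 CPM with the mimic and 965 and 959 CPM with the siRNA (-1.02) and FGG at 409 and 389.6 CPM with the mimic and 863 and 819.9 CPM with the siRNA (-1.08), both higher with the siRNA. FGB was higher with the mimic, at 268 and 281 CPM with the mimic and 185 and 184 CPM with the siRNA (log2 fold change 0.57, adjusted p = 0.0048). All 3 were below both groups in NC, at 86.9 and 64.7, 162 and 126 and 34.1 and 23.6 CPM for FGA, FGG and FGB. Among the other clotting and complement genes, PLG, the zymogen of plasmin, differed by -1.93 and F11 by -1.50. Of the list 21 of the 24 tested were higher with the siRNA and 1 with the mimic (median log2 fold change -0.71), FGB being that one.

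Among the transcription factors of hepatocytes, CEBPA and CEBPB stood on opposite sides. CEBPA, a factor of the differentiated hepatocyte, was at 28.9 and 29.3 CPM with the mimic and 116 and 120.3 CPM with the siRNA (log2 fold change -2.02, adjusted p = 4.8e-08). CEBPB, a factor of the acute phase and of stress, was at 277 and 273 CPM with the mimic and 130.4 and 128 CPM with the siRNA (log2 fold change 1.09, adjusted p = 4.8e-07). HNF4A, which holds much of the hepatocyte program, differed by -0.70 and ONECUT1 by -1.56. Of the list 14 of the 22 tested were higher with the siRNA and 5 with the mimic (median log2 fold change -0.66). AGXT, which detoxifies glyoxylate, led the amino acid list at 4.81 and 5.09 CPM with the mimic and 57.8 and 61.9 CPM with the siRNA (log2 fold change -3.60), followed by OTC (-2.73) of the urea cycle and BHMT (-2.40), while ARG2 was higher with the mimic (1.45). In that list 9 of the 17 tested were higher with the siRNA and 2 with the mimic (median log2 fold change -0.31). In drug metabolism, GSTA1, a glutathione transferase, was at 1.88 and 1.41 CPM with the mimic and 37 and 38.1 CPM with the siRNA (log2 fold change -4.51), with a near copy, GSTA2, at -4.30. The 2 are close paralogs, so the division of reads between them is uncertain. UGT2B7, a glucuronosyltransferase, was higher with the mimic (1.26). In that list 11 of the 17 tested were higher with the siRNA and 1 with the mimic (median log2 fold change -0.85).

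**Figure D3:**
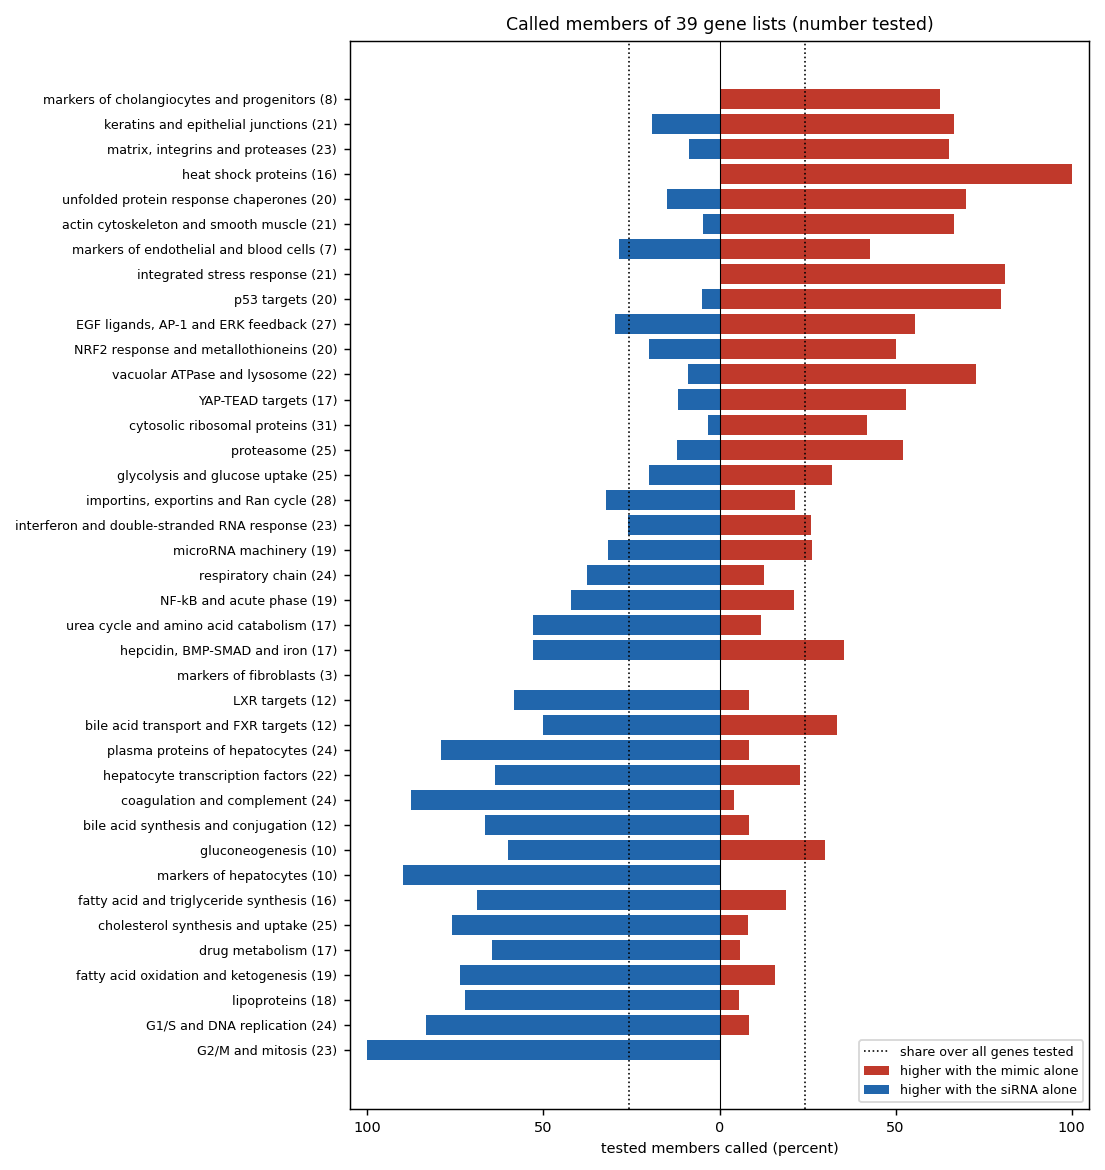
Percent of the tested members of 39 gene lists (number tested in brackets) that were higher with the mimic (red, to the right) or higher with the siRNA (blue, to the left), ordered by the list's median log2 fold change. Dotted lines mark the share over all genes tested, 24.4% and 25.8%. Mitosis genes reach 23 of 23 on the blue side and heat shock genes 16 of 16 on the red side.

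Genes of the cell cycle were higher with the siRNA in nearly all members. Of the genes for G2/M phase and mitosis, 23 of the 23 tested were higher with the siRNA and none with the mimic (median log2 fold change -1.68), 22 of them at least 2-fold. TOP2A, the topoisomerase that untangles replicated DNA, was at 73.1 and 78.1 CPM with the mimic and 353 and 365 CPM with the siRNA (log2 fold change -2.25, SE 0.08, adjusted p = 2.0e-08). CCNA2, the cyclin of S and G2 phase, was at 14.4 and 10.5 CPM with the mimic and 65.9 and 64.9 CPM with the siRNA (log2 fold change -2.39). BIRC5, which encodes the mitotic protein survivin, differed by -2.13, AURKB by -1.92, and MKI67, a proliferation marker, by -1.85. The smallest difference of the list was that of CDC20 (-0.84). NC lay between the 2 groups for TOP2A (257 and 230.3 CPM) and for MKI67 (95.8 and 113 CPM), and near the mimic group for CCNA2 (18.9 and 14.1 CPM).

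In the list for G1/S and DNA replication 20 of the 24 tested were higher with the siRNA and 2 with the mimic (median log2 fold change -1.28). E2F1, the factor that drives entry into S phase, was at 8.06 and 7.49 CPM with the mimic and 61.5 and 65.2 CPM with the siRNA (log2 fold change -3.03, adjusted p = 8.7e-09). CDC25A, the phosphatase that activates CDK2, was at 3.75 and 4.38 CPM with the mimic and 27.9 and 27.5 CPM with the siRNA (-2.76). MCM2, a subunit of the replicative helicase, differed by -1.88, and MCM3 and MCM5 by -1.79 and -1.83. The exceptions were 2 D cyclins, CCND1 (0.22) and CCND2 (1.78), both higher with the mimic. CDKN1A, the inhibitor p21 of the cyclin kinases, differed in the opposite direction to E2F1 and to the cyclin CCNA2. It was at 366 and 329.6 CPM with the mimic and 102 and 86.6 CPM with the siRNA (log2 fold change 1.88, adjusted p = 1.2e-07). Among the p53 targets, which hold CDKN1A, 16 of the 20 tested were higher with the mimic and 1 with the siRNA (median log2 fold change 0.71). PMAIP1, which promotes apoptosis, differed by 2.06, and RRM2B, a subunit that supplies nucleotides for repair, by 1.74. MDM2, another p53 target, differed by 0.20 only.

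Stress response genes were higher with the mimic. Of the heat shock genes, 16 of the 16 tested were higher with the mimic and none with the siRNA (median log2 fold change 0.96). HSPA1A, the inducible HSP70, was at 2492 and 2191 CPM with the mimic and 725 and 633 CPM with the siRNA (log2 fold change 1.79), with a near-identical copy in HSPA1B (1.65), so reads may be split between them. CRYAB, a small heat shock protein, was at 69 and 58.5 CPM with the mimic and 3.32 and 2.79 CPM with the siRNA (log2 fold change 4.38, SE 0.15, adjusted p = 2.0e-08). HSPA6, a strictly inducible HSP70, was at 100.4 and 78.9 CPM with the mimic and 17 and 12.9 CPM with the siRNA, against 0.225 and 0.307 CPM in NC. HSP90AA1 had the smallest difference of the list (0.22). Among chaperones of the endoplasmic reticulum, HSPA5 (BiP) was at 584 and 476 CPM with the mimic and 135 and 117 CPM with the siRNA (log2 fold change 2.07, adjusted p = 2.1e-06) and DNAJB9 differed by 2.34. XBP1, a transcription factor of the same response, had the opposite sign, at 122 and 129 CPM with the mimic and 250.0 and 241 CPM with the siRNA (-0.97), and so did CALR (-0.26). In that list 14 of the 20 tested were higher with the mimic and 3 with the siRNA (median log2 fold change 0.90).

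The integrated stress response, in which ATF4 induces amino acid genes and further factors, showed one direction. Of the genes on its list, 17 of the 21 tested were higher with the mimic and none with the siRNA (median log2 fold change 0.74). ATF4 differed by 0.50. Of the factors downstream of it, ATF3 was at 95 and 92 CPM with the mimic and 29.6 and 25.6 CPM with the siRNA (log2 fold change 1.76, adjusted p = 1.1e-06) and DDIT3 (CHOP) at 213 and 187 CPM with the mimic and 79.5 and 71.9 CPM with the siRNA (1.40). ASNS, the asparagine synthetase, differed by 1.51, and PHGDH, the first enzyme of serine synthesis, did not pass (-0.18, adjusted p = 0.057). The cystine transporter SLC7A11, also a target of the antioxidant factor NRF2, was at 160.5 and 177 CPM with the mimic and 31.8 and 31.6 CPM with the siRNA (2.41). Other NRF2 targets lay on the same side, among them TXNRD1 (2.34) and AKR1C1 (2.15). AKR1C1 was at 2034 and 1988 CPM with the mimic and 437 and 471 CPM with the siRNA, but NC had 2592 and 2141 CPM, so the siRNA group was the one apart. NQO1, a standard NRF2 target, did not pass (0.21, adjusted p = 0.057), and the metallothionein MT1F was higher with the siRNA (-2.37). In the joint list of NRF2 targets and metallothioneins 10 of the 20 tested were higher with the mimic and 4 with the siRNA (median log2 fold change 0.50).

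Of the tested genes of the actin cytoskeleton, the matrix and its receptors, and keratins and junctions, more were higher with the mimic than with the siRNA. AKAP12 (chromosome 6, 151239999 to 151358557, plus strand, on GRCh38), a scaffold for protein kinases that is on none of the lists, was at 2202 and 2235 CPM with the mimic and 92.8 and 80 CPM with the siRNA, a log2 fold change of 4.68 (SE 0.11, adjusted p = 3.6e-09), with 17 and 15.9 CPM in NC. TAGLN, which binds actin in smooth muscle, was at 116 and 109 CPM with the mimic and 4.53 and 2.88 CPM with the siRNA (log2 fold change 4.92), and PALLD, a scaffold of stress fibres, at 73.5 and 78.9 CPM with the mimic and 5.25 and 5.08 CPM with the siRNA (3.88). FLNA, the actin crosslinker filamin A, was at 1372 and 1479 CPM with the mimic and 426 and 410.0 CPM with the siRNA (1.77) and ACTG1, the cytoplasmic gamma actin, at 6421 and 6591 CPM with the mimic and 3148 and 3074 CPM with the siRNA (1.06). ACTB, the beta actin often used as a reference, did not pass (0.21, adjusted p = 0.071). In this list 14 of the 21 tested were higher with the mimic and 1 with the siRNA (median log2 fold change 0.81).

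Among the ligands of the EGF receptor, AREG (chromosome 4, 74445134 to 74455009, plus strand, on GRCh38) was at 152 and 131 CPM with the mimic and 3.86 and 2.83 CPM with the siRNA, a log2 fold change of 5.40 (adjusted p = 4.9e-09). EREG had 315 and 281 counts with the mimic and 4 and 4 with the siRNA. The receptor EGFR was higher with the mimic (1.27), while its relatives ERBB2 and ERBB3 were higher with the siRNA, by -1.30 and -1.70. The AP-1 subunit FOSL1 was at 134 and 139 CPM with the mimic and 24.1 and 22.2 CPM with the siRNA (2.56), and the phosphatases DUSP5 and DUSP4, which are induced by ERK and dampen it, differed by 3.12 and 3.98. FOS did not pass (0.17, adjusted p = 0.48), nor did DUSP6 (0.14, adjusted p = 0.19), and MYC was higher with the siRNA (-0.44). In that list 15 of the 27 tested were higher with the mimic and 8 with the siRNA (median log2 fold change 0.50). The YAP-TEAD targets ANKRD1 and AXL, a receptor kinase, were at 1.93 and 3.91, but the matricellular genes CCN1 (CYR61 in the table) and CCN2 (CTGF) had opposite signs, 1.83 and -0.63. In this list 9 of the 17 tested were higher with the mimic and 2 with the siRNA (median log2 fold change 0.30). The 2 on the siRNA side fell to 0 or 1 without either mimic library and to 0 without replicate 1 of the siRNA group.

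All 7 tested keratins of the list were higher with the mimic. KRT19, a keratin of bile duct cells, was at 676 and 647 CPM with the mimic and 68.6 and 66.3 CPM with the siRNA (log2 fold change 3.29, adjusted p = 1.2e-08), and KRT23 at 301 and 287 CPM with the mimic and 33.3 and 31.8 CPM with the siRNA (3.18). KRT20, an intestinal keratin, had 1353 and 1301 counts with the mimic and 5 and 2 with the siRNA. KRT8 and KRT18, the pair that every hepatocyte makes, differed by 0.86 and 0.92. The cadherins split, with CDH1 (E-cadherin) at -1.18, CDH2 (N-cadherin) at 0.70 and CDH16 at -2.24. Of the list of keratins and junctions 14 of the 21 tested were higher with the mimic and 4 with the siRNA (median log2 fold change 1.07). In the matrix, FN1 (fibronectin) was at 14454 and 15699 CPM with the mimic and 8887 and 8662 CPM with the siRNA (0.78) and ITGA5, the alpha chain of a fibronectin receptor, at 28.4 and 28.2 CPM with the mimic and 1.35 and 0.989 CPM with the siRNA (4.59). TIMP1 and TIMP3, 2 inhibitors of metalloproteases, had opposite signs (3.02 and -0.68), and SPARC was higher with the siRNA (-2.65). In that list 15 of the 23 tested were higher with the mimic and 2 with the siRNA (median log2 fold change 1.02).

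Iron genes lay on both sides. Both ferritin chains, which store iron, were higher with the mimic, with FTL at 12636 and 11577 CPM with the mimic and 4922 and 4770.0 CPM with the siRNA (1.32) and FTH1 at 5008 and 4333 CPM with the mimic and 2800.1 and 2659 CPM with the siRNA (0.77). The exporter SLC40A1 was higher with the mimic too (1.19). The hormone HAMP (hepcidin), the receptor TFR2 and the protease TMPRSS6, which act in the sensing of iron, were higher with the siRNA (-1.08, -2.40 and -2.16), as was the BMP target ID1 (-0.95). BMP6, the ligand of that pathway, was higher with the mimic (3.32). In this list 9 of the 17 tested were higher with the siRNA and 6 with the mimic (median log2 fold change -0.32).

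Chemokines also split. CXCL8 was at 184 and 157 CPM with the mimic and 14.3 and 12.4 CPM with the siRNA (log2 fold change 3.67), and CCL20 at 472 and 458 CPM with the mimic and 1385 and 1210.0 CPM with the siRNA (-1.48). NFKBIA, the inhibitor that NF-kB induces, was higher with the siRNA (-0.96). In this list 8 of the 19 tested were higher with the siRNA and 4 with the mimic (median log2 fold change -0.13). Genes of the interferon response, which double-stranded RNA can induce, had no common direction, since 6 of the 23 tested were higher with the siRNA and 6 with the mimic (median log2 fold change 0.0029). The siRNA count was 3 without replicate 2 of the mimic group, and the mimic count was 3 without replicate 2 of the siRNA group. The sensors IFIH1 and EIF2AK2 differed by -0.68 and 0.75, and MX1 did not pass (0.0029, adjusted p = 0.99).

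In the family of the siRNA target, 9 of the 28 tested were higher with the siRNA and 6 with the mimic (median log2 fold change 0.02). After IPO8 the largest differences were those of XPOT, the exporter of transfer RNA (0.91), and CSE1L, which recycles importin alpha (-0.85). IPO7, the closest relative of IPO8, did not pass (0.07, adjusted p = 0.49), at 536 and 548 CPM with the mimic and 533 and 500.3 CPM with the siRNA. In the microRNA machinery 6 of the 19 tested were higher with the siRNA and 5 with the mimic (median log2 fold change -0.03). The mimic count was 3 without replicate 1 of the mimic group and 2 without replicate 1 of the siRNA group. AGO2, the Argonaute that can cut its target, was at 86.8 and 98.9 CPM with the mimic and 46.8 and 42.9 CPM with the siRNA (1.05, adjusted p = 2.5e-06), against -0.36 for AGO1. DROSHA, which starts the processing of miRNA precursors, differed by -0.64.

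In the lists for housekeeping machinery, medians were closer to 0. In the respiratory chain 9 of the 24 tested were higher with the siRNA and 3 with the mimic (median log2 fold change -0.08). In the proteasome 13 of the 25 tested were higher with the mimic and 3 with the siRNA (median log2 fold change 0.23), with PSMD2 (1.41) the largest. Among cytosolic ribosomal proteins 13 of the 31 tested were higher with the mimic and 1 with the siRNA (median log2 fold change 0.27). That count of 13 fell to 4 without replicate 1 of the mimic group or without replicate 2 of the siRNA group, and to 5 without replicate 1 of the siRNA group, and it was 21 without replicate 1 of NC. Lysosomal genes stood out more, in that 16 of the 22 tested were higher with the mimic and 2 with the siRNA (median log2 fold change 0.50). CTSB, a cysteine protease, was at 306 and 266 CPM with the mimic and 65.3 and 61.1 CPM with the siRNA (2.18), while CTSD, an aspartic protease, was higher with the siRNA (-0.49).

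Taking the largest differences of all without regard to list, 2 genes on the mimic side had no count in either siRNA library. TM4SF19, a tetraspan membrane protein, had 509 and 406 counts with the mimic, at least 157-fold over a floor of 3 counts per library. HIST2H2BE, a histone gene, had 241 and 291 counts, at least 91.6-fold over that floor. LEAP2, a liver-secreted peptide that blocks the ghrelin receptor, was the reverse, with 0 counts in both mimic libraries and 291 and 285 with the siRNA, at least 93-fold. LEAP2 and HIST2H2BE divided the whole series by siRNA arm, as no other tested gene did when a gene was asked to have at most 3 counts in all 4 libraries of one arm and at least 50 in all 4 of the other. LEAP2 had no count in the 4 libraries with control siRNA and 190 to 363 in the 4 with importin8 siRNA. HIST2H2BE had 212 to 291 counts in the former and none in the latter. Histone genes of this cluster share sequence, so that level is uncertain.

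Further genes at the top of the mimic side were nearly silent with the siRNA. TFPI2, a protease inhibitor of the matrix, had 620 and 568 counts against 1 and 2. IGFN1 had 2367 and 2291 counts against 7 and 11, and ATP6V0D2, a subunit of the proton pump of lysosomes and osteoclasts, 645 and 485 against 8 and 3. GPRC5A, a receptor induced by retinoic acid, was well measured on both sides, at 245 and 242 CPM with the mimic and 5.97 and 5.17 CPM with the siRNA (log2 fold change 5.45, SE 0.11, adjusted p = 3.5e-09). PDE7B, a phosphodiesterase, was at 27.6 and 25.6 CPM with the mimic and 0.359 and 0.719 CPM with the siRNA (5.61) and GEM, a small GTPase, at 16.5 and 13.2 CPM with the mimic and 0.314 and 0.36 CPM with the siRNA (5.44). The other genes of the 15 largest on this side, ZNF804A, KLHDC7B, MYH16, TAGLN3 and SPX, had 183 to 1281 counts with the mimic and 0 to 16 with the siRNA.

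At the top of the siRNA side, MIXL1 (chromosome 1, 226223618 to 226227054, plus strand, on GRCh38), a homeobox gene of early mesendoderm, was at 35.3 and 33.4 CPM with the mimic and 494 and 485 CPM with the siRNA, a log2 fold change of -3.83 (SE 0.092, adjusted p = 4.0e-09). Its NC level was 69.4 and 58.6 CPM and that with both RNAs 133 and 142 CPM. LGALS2, a galectin, had 206 and 193 counts with the siRNA and 3 and 0 with the mimic. TBX10, a T-box factor, was at 0.961 and 0.989 CPM with the mimic and 28.8 and 26.2 CPM with the siRNA (-4.81), and RBP5, a retinol-binding protein, at 1.28 and 0.801 CPM with the mimic and 15.7 and 15.8 CPM with the siRNA (-3.91). CCL16, a chemokine of the liver, was at 1.01 and 1.55 CPM with the mimic and 16.9 and 17.2 CPM with the siRNA (-3.73), DKK4, an inhibitor and target of Wnt signalling, at 1.97 and 1.23 CPM with the mimic and 19.8 and 18 CPM with the siRNA (-3.56), and the metalloprotease gene MEP1A at 2.01 and 2.26 CPM with the mimic and 26.3 and 24.6 CPM with the siRNA (-3.57).

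By difference in CPM rather than in fold, the largest on the mimic side were FTL, FN1, RABEPK, ACTG1, IGFBP1 and AKAP12. RABEPK was at 4739 and 4551 CPM with the mimic and 1177 and 1135 CPM with the siRNA (2.01). It is a close neighbour of HSPA5, and whether reads of HSPA5 were counted to it was not tested. IGFBP1, which binds insulin-like growth factors, was at 3602 and 3483 CPM with the mimic and 1417 and 1204 CPM with the siRNA (1.43, adjusted p = 0.013). Its adjusted p was 0.0573 without replicate 1 of the mimic group, 0.0519 without replicate 2 and 0.0763 without replicate 2 of the siRNA group. On the siRNA side the largest were APOB, AHSG, AFP, IGF2, INS-IGF2 and A2M. IGF2, a fetal growth factor, was at 2425 and 2666 CPM with the mimic and 6008 and 6319 CPM with the siRNA (-1.28), and INS-IGF2 is a readthrough gene that overlaps it, so the reads of both cannot be told apart. A2M, a broad protease inhibitor, was at 3074 and 3536 CPM with the mimic and 5342 and 5369 CPM with the siRNA (-0.70).

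The NC libraries place each group. The 2 comparisons with NC share those libraries, so their values are only set side by side. Against NC, 10341 genes (58.4%) passed for the mimic and 8329 (47.0%) for the siRNA. For mitosis genes the list median was -0.58 with the mimic and 1.09 with the siRNA, and for plasma proteins -0.79 and 0.27. Cholesterol genes had medians of -1.37 and -0.58, and heat shock genes 1.38 and 0.47, so those 2 lists had the same sign in both and differed in size. Single genes showed further arrangements. For NR1H4 the values against NC were -1.43 with the mimic and 0.13 with the siRNA, for CYP7A1 0.52 and 3.80, for TTR -2.32 and 1.18, and for APOA5 -4.26 and -0.70. AREG was above NC in both, by 6.66 and 1.25, and CRYAB was above NC with the mimic (1.88) and below it with the siRNA (-2.50).

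**Figure D4:**
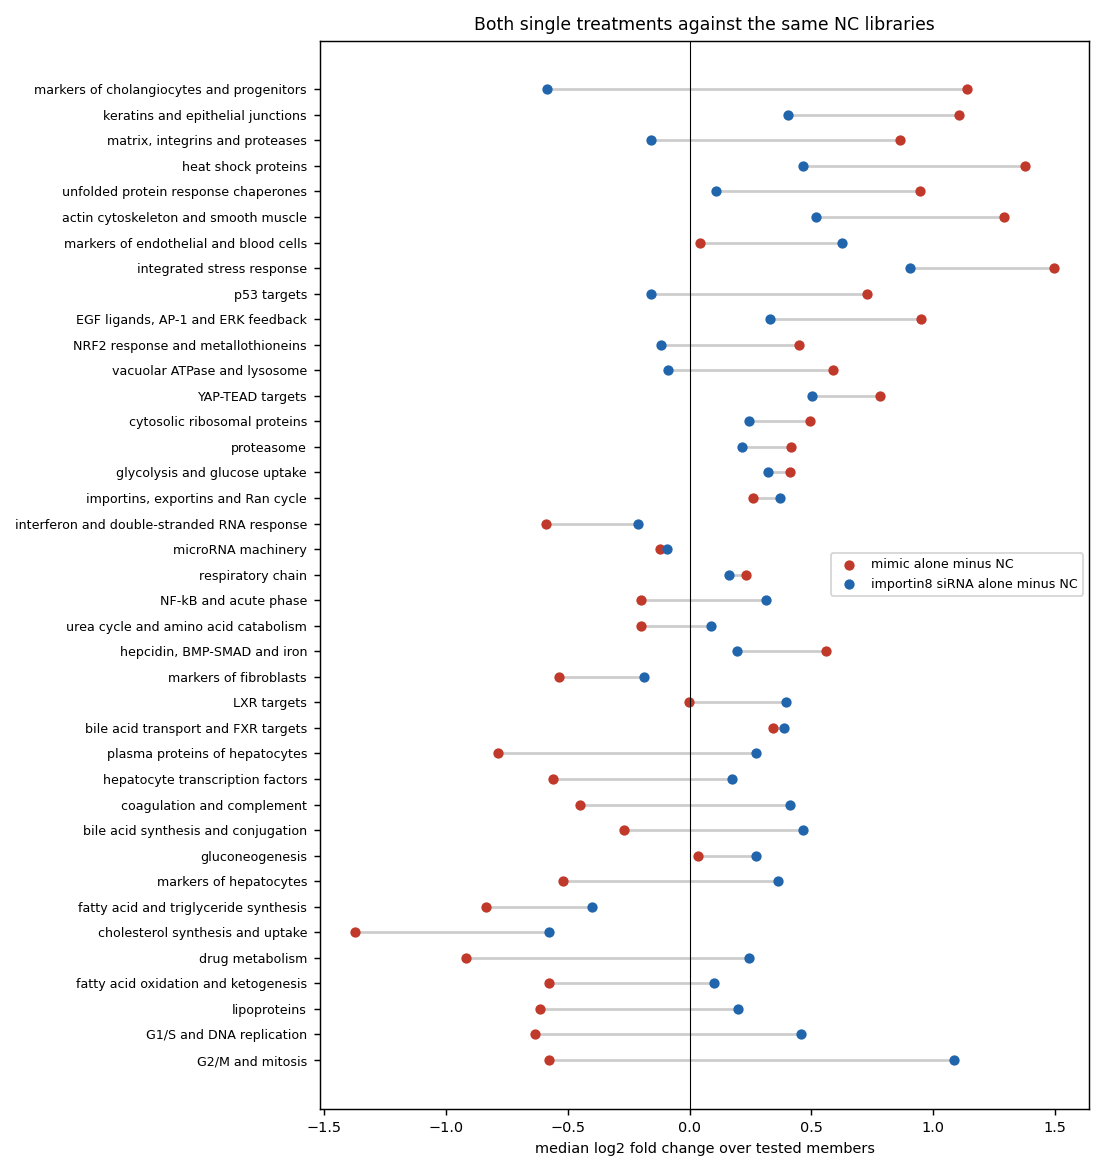
Median log2 fold change over the tested members of each of 39 gene lists for the mimic group minus NC (red) and the siRNA group minus NC (blue), joined by a grey line. Both use the same NC libraries. Mitosis genes lie at -0.58 and 1.09, cholesterol genes at -1.37 and -0.58, and heat shock genes at 1.38 and 0.47.

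When both active RNAs were present, levels of the most different genes mostly lay between the single treatments. Among the 30 genes with the largest differences, 15 in each direction, the group mean lay between, or level with a single treatment, in 29. HIST2H2BE was the level case, with no count with both RNAs or with the siRNA. LEAP2 was the one with a mean above both. Its libraries with both RNAs, at 17.5 and 9.01 CPM, lay on either side of those with the siRNA, at 13.1 and 12.8 CPM. AKAP12, for example, was at 815 and 717 CPM with both, AREG at 26.5 and 24.2 CPM and APOA5 at 12.8 and 14.2 CPM. Since these genes were taken for a wide gap between the single treatments, a level inside that gap is a description with no test.

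Genes with a match to the seed of miR-552-3p lay slightly lower in the mimic group than genes without one. Of 13637 tested genes with a reference 3′ UTR (the longest of each gene's principal transcripts, read on the sense strand), 1038 (7.61%) held an 8mer, 1295 (9.5%) a 7mer-m8 and 693 (5.08%) a 7mer-A1 as their best site. Genes with an 8mer were lower with the mimic in 34% and higher in 22.4%, beside 29.3% and 27.5% of the 10611 genes with none of these sites, and 30.4% and 26.9% of all 13637. Their median log2 fold change was -0.0806, beside -0.0067 for genes without a site. For 7mer-m8 and 7mer-A1 the medians were -0.0479 and -0.1. Of 7mer-m8 genes 33.2% were lower with the mimic and 26.2% higher, and of 7mer-A1 genes 37.4% and 25%. The 7mer-A1 genes, and not the 8mer genes, thus had the lowest median and the largest share lower. Against NC the 8mer genes had a median of -0.0574 with the mimic and 0.0665 with the siRNA, and genes without a site 0.0431 and 0.0576. For 7mer-A1 genes these medians were -0.0671 and 0.0791. The 7mer-m8 genes had -0.0772 and -0.0246, below NC with the siRNA as well. A median of log2 CPM differences, taken over the 4 pairs of 1 mimic and 1 siRNA library, had an SD of 0.0079 for genes with an 8mer. It was 0.0101 for genes without a site. The pairs share libraries, and this SD does not measure the spread between genes, which was far wider. The 25th and 75th percentiles were -0.596 and 0.339 for genes with an 8mer, and -0.475 and 0.448 for genes without a site.

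UTRs with an 8mer are longer, with a median of 3415 bases against 780, so the shift was also read within length classes. Below 1000 bases the median was -0.27 for 107 genes with an 8mer and -0.04 for 6159 without a site. From 1000 to 2000 bases it was -0.16 and 0.02, and from 2000 to 4000 bases -0.13 and 0.04. From 4000 bases up it was -0.01 and 0.11. In each class genes with an 8mer had the lower median. Whether the sites or another property of these genes gave this difference was not tested. The 568 genes with an 8mer for the opposite strand of the precursor, miR-552-5p, had a median of 0.0722. Their UTRs were long too, with a median of 3372 bases. That value lies between the medians of genes without a miR-552-3p site from 2000 to 4000 bases (0.04) and from 4000 bases up (0.11). Of the 1301 8mers for miR-552-3p, 671 were followed by the letters NTCCCA. The 449 genes in which every 8mer was so followed had a median of -0.0896, and the other 589 one of -0.077.

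**Figure D5:**
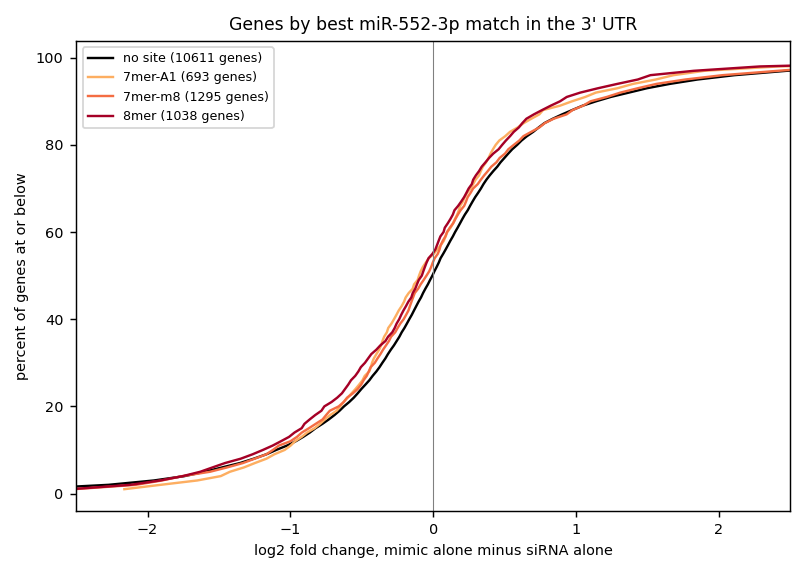
Cumulative percent of genes (vertical) at or below a log2 fold change of the mimic group minus the siRNA group (horizontal) for genes whose best 3′ UTR site is an 8mer (1038), a 7mer-m8 (1295) or a 7mer-A1 (693) and for genes with no site (10611). The curves of genes with a site lie slightly left of the black curve around 0, with medians of -0.0806, -0.0479 and -0.1 against -0.0067.

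Of the genes whose sites are printed above, ACADSB, a dehydrogenase of short and branched-chain acyl-CoAs, was at 35.8 and 39.2 CPM with the mimic and 250.2 and 244 CPM with the siRNA (log2 fold change -2.72, adjusted p = 4.4e-09). It was below NC (206 and 203 CPM) with the mimic and above it with the siRNA. PAGR1, which works with a histone methyltransferase complex, was at 3.48 and 5.37 CPM with the mimic and 28.7 and 28.7 CPM with the siRNA (-2.70) and SPARC at 11.4 and 10.7 CPM with the mimic and 68.9 and 69.9 CPM with the siRNA. The other 3 of those 6 genes with an 8mer, SEC14L6, CYP7A1 and ITGAL, an integrin chain usually made by leukocytes, differed by -3.30, -3.28 and -3.75. Against NC the mimic group was lower for 4 of the 6, by log2 fold changes of -2.45 for ACADSB, -2.71 for PAGR1, -4.25 for SPARC and -2.59 for SEC14L6. CYP7A1 was higher than NC with the mimic, by 0.52 (adjusted p = 0.0373), and ITGAL, at -0.31, did not pass (adjusted p = 0.539). With the siRNA those 2 genes were above NC by 3.80 and 3.45. The mimic group had the lowest mean of the 4 groups for ACADSB, PAGR1, SPARC, SEC14L6 and ITGAL, but not for CYP7A1. For ITGAL that mean was close to NC, 0.716 against 0.891 CPM, while the NC level of SPARC was 199 and 222 CPM. A match says that the letters are in the reference UTR, and not that the site was used.

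Markers of hepatocytes were all present, and 9 of 10 were higher with the siRNA, none with the mimic (median -0.76). Their summed level was 49427 and 50235 CPM with the mimic and 70542 and 67782 CPM with the siRNA. Of 8 tested markers of bile duct cells and progenitors, 5 were higher with the mimic and none with the siRNA (median 1.56), with a summed level of 2534 and 2498 CPM with the mimic and 726 and 734 CPM with the siRNA. SOX4 (3.38), CD24 (3.34), KRT19 and SPP1 (1.88) led it, while SOX9 (-0.05, adjusted p = 0.65) and EPCAM (-0.11, adjusted p = 0.29) did not pass, and KRT7 had 2 to 4 counts per library of the contrast. Of 9 fibroblast markers in the table, 3 could be tested and none passed. Their summed level was 9 and 8.6 CPM with the mimic and 9.6 and 9.2 CPM with the siRNA, and DCN and LUM had no count in the 4 libraries. Of the markers of endothelial and blood cells, 7 were tested, 3 were higher with the mimic and 2 with the siRNA (median 0.77), with CD79A (4.82) and CDH5 (-4.10) at the ends and a summed level of 165 and 155 CPM with the mimic and 102 and 79.3 CPM with the siRNA. That median was -0.27 without replicate 1 of the mimic group and 0.15 without replicate 2 of the siRNA group. CD3E had 13 and 0 counts in the 2 mimic libraries and 6 and 0 in the 2 siRNA libraries, and COL1A2 had 14 and 2, and 21 and 0. The NC libraries had 13 and 0 counts of CD3E and 24 and 0 of COL1A2, so that replicate 1 was the higher in these 3 groups, while both libraries with both RNAs had 0 of either gene. The part of such cells in the differences between groups was not tested.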

How the data were processed

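Poly(A) RNA of 8 HepG2 libraries, 2 per group, was sequenced. Groups were taken from the sample titles, and the columns were matched to the titles by reading their abbreviations, with 51 and 52 after NC read as the mimic libraries. Per the file headers, the authors deposited an expected count and an FPKM value for each gene and library. The submitters' processing notes name RSEM 1.2.8, HISAT2 2.0.4 and Bowtie2 2.2.5, and GRCh38.p12 as the build, without roles. Of the deposited expected counts, 24.3 to 26.5% were whole within a tolerance of 1e-06, and they divide reads among genes that share sequence. The use of strand in counting is not stated. Of 26716 genes, 3656 are predicted genes with no name, and 22421 identifiers were found in the RefSeq table. FPKM was not used for any result.

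Expected counts were rounded to whole numbers and reduced by filterByExpr (4 groups) to 17715 genes. All 8 libraries were fitted by group means in edgeR 4.0.16 under R 4.3.3 (TMM, robust quasi-likelihood F test), with Benjamini-Hochberg adjustment over all genes tested and a threshold of 0.05. An approximate SE was formed by dividing the size of the log2 fold change by the root of F. On simulated counts for 17218 genes, the fit recovered 49 of 54 genes changed 2-fold at a mean of at least 100 counts, and 1 of 43 below that mean. For genes changed 4-fold it recovered 54 of 55 and 20 of 43, and it made 8 false calls. Far fewer genes were changed there than passed in the data. Recovery at the share of genes called in the data was not tested. A group with no count was set at 3 counts per library for a lower bound, which covers counting error only. Replicate libraries were not duplicates of each other, with a chi-square per degree of freedom of 7.74 in the mimic group and 5.31 in the siRNA group.

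The rule for named genes took IPO8, the 15 largest log2 fold changes each way (called, usual symbol, mean count of 100 or more, no overlap), the 6 largest CPM differences each way, 14 genes of the study's theme, up to 4 called members of each list and 6 called genes with an 8mer. Other list members named in the text were chosen after their values were seen. The 39 lists hold 775 entries, of which 767 are in the table. Members and lists were chosen with earlier results of these data known, so their counts and medians are descriptions. Sites were found in GENCODE v29 transcripts (GRCh38). Of the 6 sites, 3 are shown. Some list members are not reported here. Alternatives used DESeq2 1.42.0, limma 3.58.1 (voom), other scaling and filters, fewer libraries and a replicate block.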

Additional observations from a re-analysis of the deposited data

How the results depend on the processing

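The number of genes called, 8892 as reported, ran from 7245 with DESeq2 to 9289 with the 6 libraries other than NC (an alternative chosen after seeing the data), and from 7419 to 9255 when 1 library was left out. The share higher with the mimic ran from 46.8 to 49.9%. Replicate numbers in the labels are shared across groups, but same-numbered deviations over all tested genes correlated at only 0.0256 between the groups compared, which was not taken as pairing. CD3E and COL1A2 were nonetheless higher in replicate 1 of both groups and of NC. With the replicate number as a block, 9055 genes were called, 4401 higher with the mimic and 4654 with the siRNA. IPO8 kept its direction and its call in all 18 alternatives. Of the 192 genes taken by the rule, 191 passed, and 185 kept direction and call in every alternative that gave a value. No direction turned. The call was lost in at least 1 alternative for CNN1, CXCL1, OAS2, TARBP2, IGFBP1, RPL8 and CD14. The rule took mostly genes that were called, often for a large difference, so that 191 passed was largely set by the choice. The 192 genes do not stand for all 8892 calls, of which 7125 were kept with DESeq2. The median of genes with an 8mer, -0.0806, was -0.0711 with RLE scaling, -0.0726 with at least 10 counts in 4 libraries and -0.0897 with the 4 libraries alone, and ran from -0.101 to -0.0723 when 1 library was left out. The glycolysis count of 8 and the ribosomal count of 13 on the mimic side varied most among lists. Besides the lists whose changes stand in the text, only counts of at most 3 genes moved by over 1.5 times, each by at most 2 genes. Low counts and 2 libraries per group limit precision.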

Other observations

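RABEPK and HSPA5 are neighbours on chromosome 9 that point at each other, with 694 bases between the annotated end of RABEPK (125200542 to 125234158, plus strand) and that of HSPA5 (125234853 to 125241330, minus strand). Both were higher in the mimic group. RABEPK was at 1101 and 970.3 CPM in NC and 3087 and 2911 CPM with both active RNAs, and HSPA5 at 129 and 106 CPM in NC and 326 and 318 CPM with both, so more counts were assigned to RABEPK than to HSPA5 in all 4 groups. Whether reads of one gene were counted to the other was not tested.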
